A study of Mus musculus with 6 samples.

Results

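The genes of the renin-angiotensin system were followed through 6 RNA-seq libraries of kidney and ureter from newborn wild type (WT) and Ahnak knockout (KO) mice. Members were the rows of the deposited gene table whose symbol is Ren1, Agt, Ace, Agtr1a, Agtr1b, Agtr2, Mas1 or Atp6ap2, and all 8 were found among the 24532 genes listed. They were picked by symbol, with earlier results of these data known, and not by a threshold on a measured value. Kidney and ureter differed in which of these genes led. Ren1 had the highest level of the 8 genes in each kidney library and was 63.4-fold lower in ureter, whereas Agtr2 was 9.64-fold higher in ureter and led there. Between KO and WT kidneys none of the 7 members that could be tested passed the test.

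Renin, made by juxtaglomerular cells of the kidney, cuts angiotensinogen (Agt) to angiotensin I, and angiotensin-converting enzyme (Ace) turns that into angiotensin II. Angiotensin II raises blood pressure through type 1 receptors, which rodents carry as Agtr1a and Agtr1b, while the type 2 receptor (Agtr2) is known for high expression in fetal tissue and in the mesenchyme of the developing urinary tract. Mas1 is the receptor of angiotensin 1-7, and Atp6ap2, the (pro)renin receptor, is also an accessory subunit of the vacuolar proton pump. Mice that lack renin, angiotensinogen, the converting enzyme or both type 1 receptors are known for a poorly formed renal papilla and a wide renal pelvis.

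Bulk RNA was taken at postnatal day 1 from WT and Ahnak KO mice, in which an exon of Ahnak was disrupted. Organs were pooled, a few kidneys or ureters to an RNA, and how many went into each library was not stated. There were 2 libraries of WT kidney, 2 of KO kidney, 1 of WT ureter and 1 of KO ureter, and the labels name no other treatment. The titles call all 6 samples kidney, and tissue was taken here from the source name, which gives ureter for the third sample of each genotype. Strain and sex were not stated. Nothing in the labels says whether replicates came from separate litters, so p-values measure the spread between these libraries only.

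The libraries held 55744703 to 66095616 counts in kidney and 54985927 (WT) and 36410246 (KO) in ureter, so 3 counts stood for 0.0454 to 0.0824 CPM (counts scaled to library size) before TMM scaling. All other CPM values are after TMM scaling over the 6 libraries, and comparisons of level between genes use the authors' TPM, which is also divided by transcript length. Tissue labels were met by most of the markers: all 10 urothelial and all 10 smooth muscle markers rose in ureter. Of 17 podocyte and tubule markers 15 fell, 8 of which were listed at 0 in both ureters, and 1 rose. Ahnak was counted in every library, at 184 and 190 CPM in WT kidneys, 139 and 131 CPM in KO kidneys, 728 CPM in WT ureter and 631 CPM in KO ureter. In the deposited TPM the ureters stood in the other order, at 77.5 in WT and 88.0 in KO. The Ahnak transcript thus remained present in the KO libraries, and the kidney difference (log2 -0.47 ± 0.10, standard error) did not pass edgeR's quasi-likelihood test (adjusted p = 1.0). Library KO kidney 1 stood apart, with 176348 counts of Xist and 0 counts over 4 Y-linked genes. In the other 5 Xist was at 17 to 36 counts and the Y-linked genes summed to 8415 to 18055 counts. By these genes KO kidney 1 was female and the other 5 libraries were male, so KO kidneys were mixed in sex and WT kidneys were not. Library KO ureter held 8.06% of its counts in Rn45s, a ribosomal RNA gene, where the others held 0.496% to 0.632%. In bulk tissue, fewer cells of a type and less RNA per cell cannot be told apart.

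By TPM the order in kidney was Ren1 (362 ± 192 TPM, SD, n = 4), Atp6ap2 (88.0 ± 9.01), Agtr2 (47.3 ± 7.36), Agtr1a (25.6 ± 3.83), Ace (17.1 ± 1.63), Agt (6.07 ± 1.99), Agtr1b (1.70 ± 0.40) and Mas1 (0.054 ± 0.040). No range touched that of its neighbour, so the order was the same in each of the 4 kidney libraries. Only 1.41% of all genes had a higher mean TPM in kidney than Ren1. In ureter Agtr2 came first (347 ± 23.4 TPM, n = 2), ahead of Atp6ap2 (56.7 ± 2.98) and Agtr1a (11.4 ± 0.65). Agt (5.93 ± 2.67), Ace (4.75 ± 1.73) and Ren1 (4.44 ± 1.71) followed with ranges that overlapped, and their order in ureter is therefore not settled by these 2 libraries. Agtr1b (0.90 ± 0.45) and Mas1 (0.17 ± 0.25) were lowest. Ren1 made up 46.6% to 74.6% of the summed TPM of the 8 genes in kidney and 0.785% and 1.25% in ureter, while Agtr2 made up 6.43% to 14.6% in kidney and 80.5% in each ureter.

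**Figure D1:**
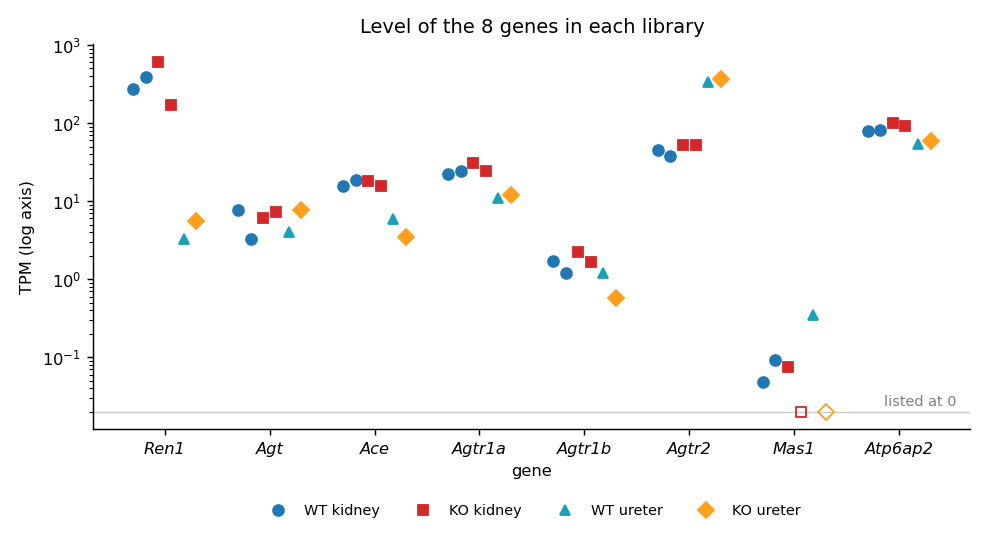
TPM (log axis) of the 8 genes in each of the 6 libraries, by tissue and genotype, with 1 point per library and open symbols on the grey line for values listed at 0. Ren1 sits between 169 and 615 TPM in kidney and at 3.23 and 5.65 TPM in ureter, and Agtr2 moves the other way, from 37.6 to 53.1 TPM in kidney to 331 and 364 TPM in ureter.

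**Figure D2:**
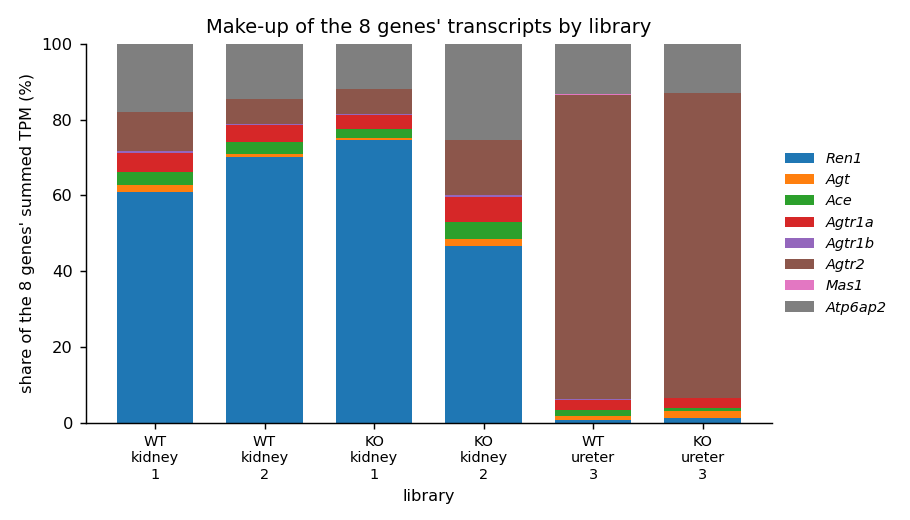
Share of each gene in the summed TPM of the 8 genes, 1 bar per library. Ren1 takes the largest share in all 4 kidney libraries and Agtr2 takes 80.5% in both ureter libraries.

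The comparison of tissues asked where along the urinary tract each component was transcribed. The 6 libraries were fitted together with genotype as a term, using edgeR's quasi-likelihood test and Benjamini-Hochberg adjustment over 16873 genes. Mas1, on low counts, was still tested with WT ureter left out, but not with the WT kidney library of higher Mas1 count left out. With all libraries in the fit, all 8 members were tested. Of these, 4 passed an adjusted p of 0.05, with Ren1, Ace and Agtr1a lower in ureter and Agtr2 higher, against a background of 45.0% of all genes tested (23.7% lower and 21.4% higher in ureter). DESeq2 called 5 of the 8, adding Atp6ap2, against 51.8% of all genes. A share of 4 in 8 is close to that background and is no result about the members as a group. The median difference over the members was -0.40 on the log2 scale and -0.08 over all genes tested. Groups did not overlap for the same 4 genes, where both ureters lay below all 4 kidneys for 33.1% of all genes and above them for 28.0%.

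**Figure D3:**
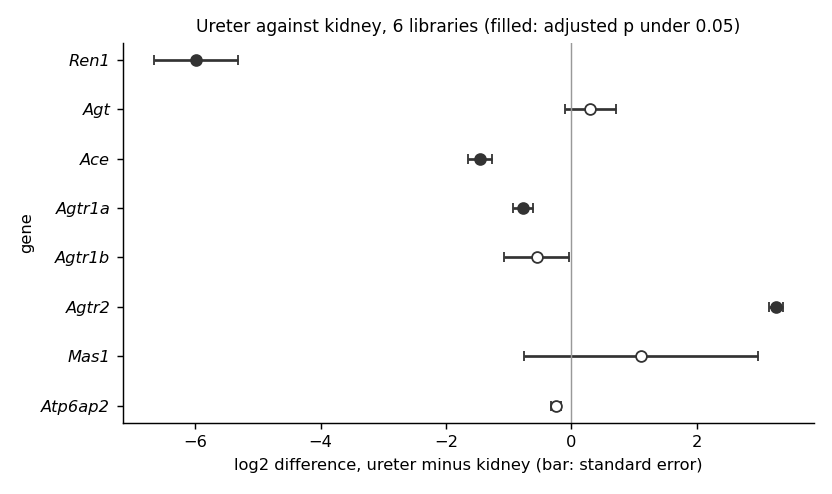
Log2 difference between ureter and kidney for each gene (x axis, from edgeR, positive where ureter is higher), with the standard error as a bar and a filled point where the adjusted p is under 0.05. Ren1 lies at -5.99 and Agtr2 at 3.27, and the wide bar of Mas1 spans 0.

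Ren1 (chromosome 1, 133350674 to 133360320, plus strand, RefSeq annotation of GRCm38.p6), which encodes renin, had 179 and 261 CPM in WT kidneys, 405 and 117 CPM in KO kidneys, 2.65 CPM in WT ureter and 5.24 CPM in KO ureter. The lowest kidney library was 22.3 times the highest ureter library. The fitted difference was -5.99 ± 0.67 (log2, standard error, adjusted p = 0.00079), and it lay between -6.37 and -5.50 when each library was left out in turn. The ureter values rested on 136 and 157 counts. Among the kidney libraries its highest value was in KO kidney 1 and its lowest in KO kidney 2. Ren2, a near-identical second renin gene of some mouse strains, was listed with 5 to 26 counts in kidney and 0 in ureter, or 0.0315% to 0.246% of the counts of Ren1 in kidney, so reads of a second copy that were assigned to Ren1 cannot be told apart from its own.

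The 250 bases before the start of Ren1 and of Agtr2 are given because these genes carry the opposite tissue differences. They are RefSeq sequence of GRCm38.p6, written 5′ to 3′ on the gene's own strand (Ren1 at chr1:133350424-133350673, Agtr2 at chrX:21484374-21484623, both plus strand). Capitals mark matches on either strand to TATAAA (the TATA box), CCAAT (the CCAAT box), TGACGTCA (the cAMP response element) or GGGCGG (the GC box).
Ren1 upstream: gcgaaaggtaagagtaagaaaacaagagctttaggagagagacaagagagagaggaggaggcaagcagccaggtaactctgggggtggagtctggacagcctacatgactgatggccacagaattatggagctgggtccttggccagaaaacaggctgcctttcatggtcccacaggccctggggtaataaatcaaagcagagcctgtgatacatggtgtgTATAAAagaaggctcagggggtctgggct
Agtr2 upstream: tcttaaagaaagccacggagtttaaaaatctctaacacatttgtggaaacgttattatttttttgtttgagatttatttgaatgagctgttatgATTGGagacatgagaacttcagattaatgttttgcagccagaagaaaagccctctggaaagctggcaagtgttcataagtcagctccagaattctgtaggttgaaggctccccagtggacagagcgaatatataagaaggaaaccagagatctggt
Only these exact letters were searched, so a variant of a box is not marked and its absence is not shown. In Ren1 the only match was TATAAA, 29 to 24 bases before the start. In Agtr2 the only match was the CCAAT box on the minus strand, 156 to 152 bases before the start. TATAAA also occurred upstream of Agt and Agtr1b, 30 and 31 bases before the start. On the minus strand it occurred 31 bases before the start in the Ace window at chr11:105967698-105967947. The other Ace window, at chr11:105974939-105975188, held no such match. Counting either strand, TATAAA was present in 12.4% of all 32851 upstream windows. CCAAT was present in 33.8% of them, GGGCGG in 32.7% and TGACGTCA in 1.55%. The G and C content was 51.6% for Ren1 and 38.4% for Agtr2, where the median window had 52.4% and the lower quartile 45.2%. No start window was given for Agtr1a.

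Agt (chromosome 8, 124556587 to 124569706, minus strand) encodes angiotensinogen, the substrate of renin, which is made chiefly by the liver. It had 6.56 and 2.81 CPM in WT kidneys, 5.13 and 6.52 CPM in KO kidneys, 4.28 CPM in WT ureter and 9.34 CPM in KO ureter, and the tissues overlapped. The difference of 0.30 ± 0.40 (log2) did not pass the test (adjusted p = 0.57), and it was -0.13 without KO ureter and 0.69 without WT ureter. Measured per length, Ren1 was 23.2 to 121 times Agt in kidney and 0.798 and 0.723 times Agt in ureter. Of the 10 liver markers none was listed at 0 in all kidneys or in all ureters. Their summed level was 109 to 131 CPM in kidney and 162 to 192 CPM in ureter. By gene, 6 rose and 2 fell in ureter, beside 21.4% and 23.7% of all genes. Alb alone had 64 and 68 CPM in ureter against at most 2.3 CPM in kidney. The part of the liver markers in the level of Agt was not tested.

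Ace (chromosome 11, 105967948 to 105989964, plus strand) encodes the enzyme that makes angiotensin II and breaks down bradykinin, and in adult tissue it marks endothelium and the proximal tubule brush border. It had 35.7 and 43.1 CPM in WT kidneys, 42.1 and 38.3 CPM in KO kidneys, 17.4 CPM in WT ureter and 11.6 CPM in KO ureter. Kidneys were close together and both ureters lay below them. Ace was lower in ureter by a log2 difference of -1.47 ± 0.19 (adjusted p = 0.0015), or 2.76-fold. The 10 endothelial markers summed to 847 to 1004 CPM in kidney and 731 to 795 CPM in ureter, and their part was not tested. Ace shares 295 exon bases with Gm11651, an antisense gene, and how the counting used strand was not stated.

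Agtr1a (chromosome 13, 30336356 to 30382867, plus strand) and Agtr1b (chromosome 3, 20314473 to 20367177, minus strand) encode the paired type 1 receptors, through which angiotensin II constricts vessels and raises sodium uptake. Agtr1a had 23.7 and 26.1 CPM in WT kidneys, 33.0 and 26.9 CPM in KO kidneys, 14.4 CPM in WT ureter and 17.6 CPM in KO ureter. Both ureters lay below all kidneys, and the difference of -0.77 ± 0.15 (log2) passed the test (adjusted p = 0.0080). With the KO libraries alone the value was nearly the same, -0.75, and the adjusted p was 0.058, the highest among the alternatives run, which gave 3.0e-05 to 0.058. Agtr1b had 1.69 and 1.22 CPM in WT kidneys, 2.19 and 1.74 CPM in KO kidneys, 1.5 CPM in WT ureter and 0.801 CPM in KO ureter, which overlapped between tissues (log2 -0.55 ± 0.52, adjusted p = 0.42). Per length, Agtr1a was 13.2 to 20.2 times Agtr1b in kidney and 9.0 and 20.7 times in ureter, so Agtr1a was the major type 1 transcript in all 6 libraries.

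The coding sequences of the type 1 receptor genes are each 1080 bases long and identical at 981 positions (90.8%), with a longest identical run of 66 bases. Of the windows of 50 bases in the longest coding transcript of each, 1.53% (Agtr1a) and 1.57% (Agtr1b) were found in another gene. The gene that shared most was the other of the pair, and a read inside a shared stretch cannot be assigned. The first 120 coding bases are printed to show how far apart the differences lie. They come from GENCODE M21 on GRCm38 (chr13:30380954-30381073, plus strand, in exon 3 of 3 of Agtr1a-201, and chr3:20316321-20316440, minus strand, in exon 2 of 2 of Agtr1b-201), and capitals mark the 8 bases that differ.
Agtr1a coding start: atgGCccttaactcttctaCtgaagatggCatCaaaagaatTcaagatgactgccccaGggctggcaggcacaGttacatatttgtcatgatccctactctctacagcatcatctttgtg
Agtr1b coding start: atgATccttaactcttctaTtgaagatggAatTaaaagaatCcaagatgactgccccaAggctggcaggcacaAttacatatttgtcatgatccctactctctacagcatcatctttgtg
From coding base 75 onward the bases shown belong to the longest identical run, which ends at coding base 140. No window of 50 bases of Ren1, Agt, Ace, Agtr2 or Mas1 was found in a GENCODE M21 transcript of another gene. For Atp6ap2 2.86% of the windows were found in another gene, most often Gm36448. The search covered only these transcripts, so it does not settle whether reads of Ren1 can be told from those of Ren2.

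Agtr2 (chromosome X, 21484624 to 21488833, plus strand) encodes the type 2 receptor, which opposes many type 1 effects. It had 61.1 and 50.2 CPM in WT kidneys, 70.5 and 73.9 CPM in KO kidneys, 545 CPM in WT ureter and 678 CPM in KO ureter. The lower ureter value was 7.37 times the highest kidney value. The difference of 3.27 ± 0.11 (log2, adjusted p = 1.1e-05) stayed between 3.21 and 3.33 with each library left out, was 3.29 in WT libraries alone and 3.24 in KO libraries alone. In ureter 1.46% of all genes had a higher mean TPM. The balance of receptors moved with tissue: Agtr2 was 1.53 to 2.19 times Agtr1a in kidney and 30.2 and 30.6 times in ureter, in TPM. The 10 smooth muscle markers summed to 603 to 709 CPM in kidney and 7137 to 7969 CPM in ureter, moving in the same direction as Agtr2, and their part was not tested.

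Mas1 (chromosome 17, 12838841 to 12868150, minus strand), the receptor gene for angiotensin 1-7, was near the limit of detection. It had 8 and 12 counts in WT kidneys, 10 and 0 in KO kidneys, 48 in WT ureter and 0 in KO ureter. WT ureter, at 0.934 CPM, was above every other library, the highest of which had 0.197 CPM. The tissue difference of 1.12 ± 1.87 (log2, adjusted p = 0.66) turned to -5.26 without WT ureter, a fitted value that depends on the prior count because KO ureter was at 0, and at this depth no tissue difference of Mas1 was detectable. Atp6ap2 (chromosome X, 12587759 to 12617051, plus strand) had 87.9 and 89.6 CPM in WT kidneys, 109 and 105 CPM in KO kidneys, 74.1 CPM in WT ureter and 90.4 CPM in KO ureter. KO ureter lay just above WT kidneys, and the difference of -0.25 ± 0.08 (log2) was short of the threshold (adjusted p = 0.055). It passed with DESeq2 (-0.23, adjusted p = 0.013) and with limma on log2(FPKM + 1) (-0.53, adjusted p = 0.0032), and over all alternatives the adjusted p lay between 0.0032 and 0.25.

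The comparison of genotypes in kidney asked whether these genes were at another level in the libraries labelled Ahnak KO. Of the 8 members 7 were tested and none passed edgeR's quasi-likelihood test, where 2 of 16481 genes did (0.0121%). All 7 adjusted p-values were 1.0. DESeq2 called none of them either, against 44 genes in all (0.267%), and 2 members had an unadjusted p under 0.05, as did 227 of all genes. Fitted differences of all 7 were above 0, with a median of 0.27 on the log2 scale against -0.0041 over all genes tested. Both KO kidneys lay above both WT kidneys for Agtr1a, Agtr1b, Agtr2 and Atp6ap2, an arrangement found for 12.7% of all genes tested.

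**Figure D4:**
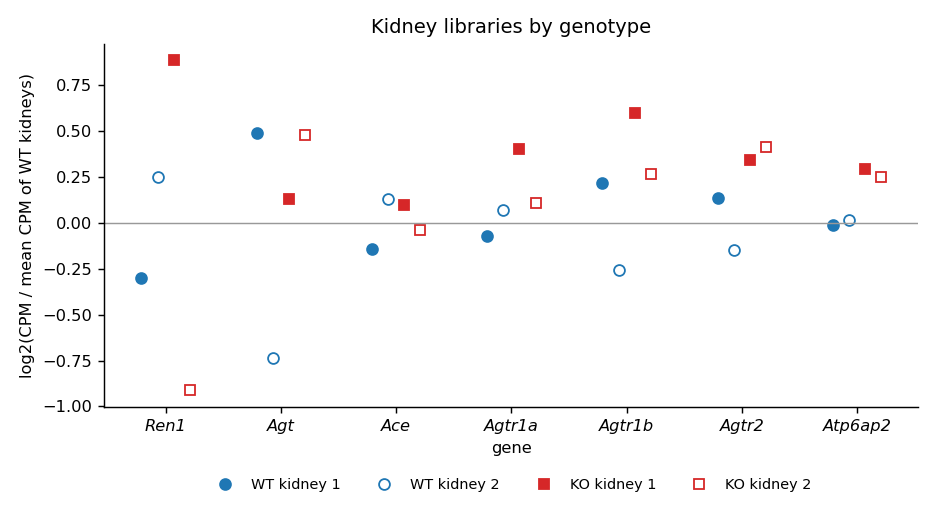
Log2 of CPM in each kidney library divided by the mean CPM of the WT kidneys, for the 7 genes tested. KO kidneys lie on both sides of the WT kidneys for Ren1, and above both WT kidneys for Agtr1a, Agtr1b, Agtr2 and Atp6ap2.

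Ren1 showed no common direction in the KO kidneys, since its 405 CPM in KO kidney 1 and 117 CPM in KO kidney 2 enclosed the 179 and 261 CPM of the WT kidneys. Its difference was 0.25 ± 0.53 (log2), 0.88 without KO kidney 2, -0.91 without KO kidney 1 and 0.0019 without WT kidney 1. The sign of a Ren1 difference between genotypes thus rested on which KO library was used. Agt was likewise mixed (0.32 ± 0.42) and was 1.05 without WT kidney 1 and -0.17 without WT kidney 2. Ace had close values in both genotypes, with 39.4 ± 5.22 CPM in WT and 40.2 ± 2.68 CPM in KO kidneys (SD, n = 2 each) and a log2 difference of 0.03 ± 0.15.

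Agtr2, Atp6ap2, Agtr1a and Agtr1b had higher values in both KO kidneys than in the WT kidneys without passing the test. Agtr2 had 55.6 ± 7.76 CPM in WT and 72.2 ± 2.42 CPM in KO kidneys (SD, n = 2 each), a log2 difference of 0.38 ± 0.14 with an unadjusted p of 0.033 and an adjusted p of 1.0 from edgeR. Atp6ap2 had 88.8 ± 1.18 and 107 ± 2.25 CPM, a difference of 0.27 ± 0.10 with the same unadjusted and adjusted p. These are the X-linked members. Without KO kidney 1, the library with Xist counts, they were at 0.41 and 0.25, which is close to the values with it. Agtr1a differed by 0.27 ± 0.16 and Agtr1b by 0.44 ± 0.41, and both had their highest kidney value in KO kidney 1. Without that library they were at 0.11 and 0.26. Mas1 was not tested, as its counts of 0 to 12 did not pass the filter.

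In ureter there was a library of each genotype and no replicate check, so values are ratios of these libraries and not of the genotypes. Of the 8 members 2 were past 2-fold, Agt being higher in KO and Mas1 lower, where 10.2% of 16117 genes were (4.44% higher and 5.78% lower in KO). Agt was at 220 counts in WT and 280 counts in the shallower KO library, a ratio of 2.2 (exact binomial 95% interval 1.83 to 2.63, counting error only). On the log2(CPM + 0.5) scale Agt differed by 1.04, and by 0.86 when scaled by library size alone. Mas1 had 48 counts in WT and 0 in KO, which with 3 counts in place of the 0 is at least 9.27-fold lower in KO, while the exact interval of the ratio, which also covers the counting error of the 48, reaches up to 0.138. Ren1 had a ratio of 1.99 (1.57 to 2.53) and Ace one of 0.673 (0.592 to 0.762). Agtr1b, on few counts, had a ratio of 0.538 (0.325 to 0.860). Agtr1a, Agtr2 and Atp6ap2 lay close together, at 1.23, 1.25 and 1.23, and these ratios depended on the scaling. Their differences on the log2(CPM + 0.5) scale were 0.29, 0.32 and 0.29, and 0.11, 0.13 and 0.10 when scaled by library size alone. KO ureter also had lower summed striated muscle markers (175 against 426 CPM, 10 of 10 genes below 0 in log2 ratio). Red blood cell markers summed lower as well (661 against 1404 CPM), with 5 of 7 genes below 0 and 2 above. Mast cell markers summed higher (371 against 247 CPM, 7 of 8 genes above 0), as did fat markers (681 against 424 CPM, 4 of 8 above 0). The part of these markers in the ratios of the members was not tested.

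Whether the genotype difference itself differed between tissues was tested by the interaction of both, with the spread taken from the kidney pairs only. None of the 8 members passed, where 19 of 17557 genes did (0.108%), and the adjusted p-values of the members lay between 0.44 (Ace, -0.60 ± 0.27) and 1.0. DESeq2 called 476 genes (2.94%) and none of the members, and 0 members had an unadjusted p under 0.05, as 2174 of the 17557 genes did. Ren1 had an interaction of 0.74 ± 1.01, which was 1.92 without KO kidney 1 (adjusted p = 0.063, where the alternatives ranged up to 0.999). For Agtr2 it was -0.05 ± 0.22 and for Atp6ap2 0.02 ± 0.18, close to 0 in both cases.

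The list of angiotensin peptide processing beyond the members held 20 genes. Of these, 2 encode receptors and not enzymes, Mrgprd and Mrgprg (named after their values were seen), and were listed at 0 in all 6 libraries. The other 18 were tested, and 8 rose and 4 fell in ureter, where 21.4% of all genes tested rose and 23.7% fell. Enpep, the aminopeptidase that turns angiotensin II into angiotensin III, fell from 194 to 276 CPM in kidney to 20.1 and 21.9 CPM in ureter (log2 -3.43 ± 0.20, adjusted p = 6.0e-05). Mme, or neprilysin, which forms angiotensin 1-7, went from 165 to 191 CPM in kidney to 31.5 and 47.1 CPM in ureter (-2.21 ± 0.16, adjusted p = 0.00013). Cma1, a mast cell chymase that can form angiotensin II without Ace, moved the other way, from 0.366 to 0.990 CPM in kidney to 49.0 and 87.7 CPM in ureter (6.67 ± 0.40, adjusted p = 6.8e-05). Cma1 is itself a mast cell marker, and 5 of the 8 mast cell markers in the table rose and 3 fell in ureter, with sums of 195 to 262 CPM in kidney and 247 to 371 CPM in ureter. Ctsb, a lysosomal protease that can activate prorenin, did not pass (324 to 370 CPM in kidney, 320 and 462 CPM in ureter, adjusted p = 0.42).

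Of 17 genes for receptor partners and Gq signalling 16 were tested, and 6 rose and 3 fell in ureter, where 45.0% of all genes were called in either direction. Agtrap, which binds the type 1 receptor and promotes its uptake into the cell, did not pass (35.2 to 38.7 CPM in kidney, 31.9 and 41.0 CPM in ureter, adjusted p = 0.95). Mtus1, which encodes a partner of the type 2 receptor, rose in ureter like the receptor gene, from 62.0 to 72.2 CPM to 110 and 175 CPM (log2 1.05 ± 0.16, adjusted p = 0.0026).

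Of the 32 genes of renin cell identity and renin release 10 rose and 12 fell in ureter, beside 21.4% and 23.7% of all genes. Akr1b7, an aldo-keto reductase known as a marker of renin cells, fell from 16.3 to 23.2 CPM in kidney to 2.33 and 1.74 CPM in ureter (log2 -3.29 ± 0.27, adjusted p = 0.00023). Gja5, the connexin of juxtaglomerular cells and of arterial endothelium, rose from 15.3 to 21.4 CPM to 58.0 and 43.0 CPM (1.52 ± 0.19, adjusted p = 0.0012). Nos1, the nitric oxide synthase of the macula densa, had 5.74 to 7.22 CPM in kidney, 0 in WT ureter and 0.968 CPM in KO ureter (-4.14 ± 1.22, adjusted p = 0.033), and Ptgs2, the cyclooxygenase of the same cells, had 2.14 to 4.66 CPM in kidney and 0.759 and 2.14 CPM in ureter without passing (adjusted p = 0.19). Rbpj, which carries Notch signals that maintain renin cells, rose from 82.3 to 92.2 CPM to 168 and 125 CPM (0.73 ± 0.12, adjusted p = 0.0033). Foxd1, which marks the stromal progenitors from which renin cells descend, did not pass (14.1 to 19.8 CPM in kidney, 18.7 and 17.7 CPM in ureter, adjusted p = 0.42). Adrb1, the receptor through which sympathetic nerves release renin, had 0.437 to 0.491 CPM in kidney, 1.01 CPM in WT ureter and 0 in KO ureter, and did not pass (adjusted p = 0.82).

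**Figure D5:**
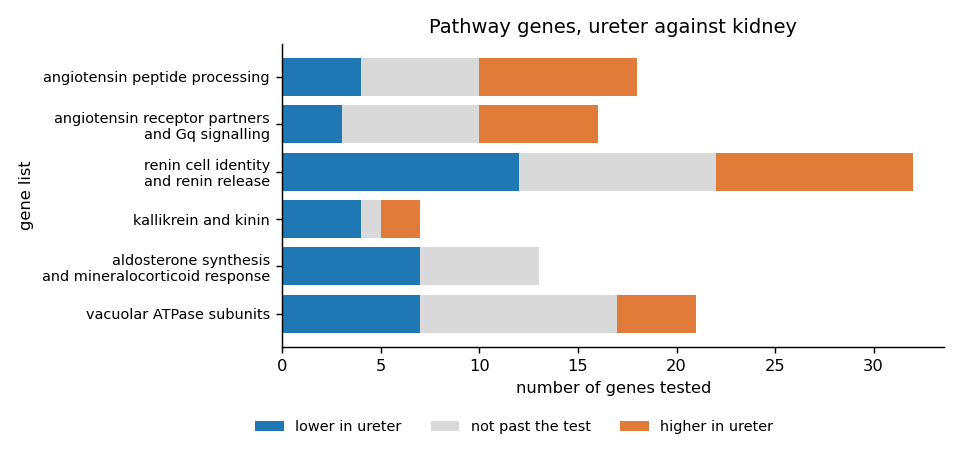
Number of genes tested in each of the 6 pathway lists that were lower in ureter, higher in ureter or not past the test (adjusted p of 0.05, edgeR). Aldosterone and mineralocorticoid genes have 7 lower and none higher, and peptide processing has 8 higher and 4 lower, where 23.7% of all genes tested were lower and 21.4% higher.

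Of 10 kallikrein and kinin genes 7 were tested, and 4 fell and 2 rose in ureter, beside 23.7% and 21.4% of all genes. The risers were Kng1, a precursor of bradykinin, with 1.24 to 2.38 CPM in kidney and 5.80 and 5.97 CPM in ureter (log2 1.83 ± 0.34, adjusted p = 0.0065), and Bdkrb2, its receptor, with 0.295 to 0.535 CPM in kidney and 1.93 and 1.37 CPM in ureter (2.07 ± 0.58, adjusted p = 0.028). Of 15 genes of aldosterone synthesis and mineralocorticoid response 13 were tested, with 7 lower in ureter and 0 higher, beside 23.7% and 21.4% of all genes. Hsd11b2, which protects the mineralocorticoid receptor from glucocorticoids, had 23.7 to 40.8 CPM in kidney and 17.3 and 12.5 CPM in ureter (-1.07 ± 0.26, adjusted p = 0.018), while Nr3c2, the receptor gene, did not pass (1.46 to 4.93 CPM in kidney, 3.01 and 3.94 CPM in ureter, adjusted p = 0.91). Aldosterone synthase, Cyp11b2, was listed at 0 in all 6 libraries and Cyp11b1 was at 0 in all but KO kidney 1 (0.165 CPM), and the 10 adrenal cortex markers summed to 23.2 to 29.5 CPM in kidney and 8.64 and 11.5 CPM in ureter, Akr1b7, which is also on that list, alone having 16.3 to 23.2 CPM in kidney. Of the 21 vacuolar ATPase subunits, the pump to which Atp6ap2 belongs, 4 rose and 7 fell in ureter, near the 45.0% of all genes called in either direction, and the subunit gene Atp6v0c, singled out after its values were seen, had 170 CPM in KO kidney 1 and 2.99 to 7.38 CPM in the other 5 libraries.

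Between kidney genotypes none of the 105 tested genes of these 6 lists passed edgeR's test, where 0.0121% of all genes did. An unadjusted p under 0.05 from edgeR was found for 4 of the 105, and for 227 of all 16481 genes tested. DESeq2 called 2 of the 105, Sgk1 and Per1, both higher in KO, where it called 0.267% of all genes. Sgk1, a kinase induced by aldosterone and by glucocorticoids, had 145 and 97.7 CPM in WT kidneys and 186 and 286 CPM in KO kidneys, a log2 difference of 0.96 ± 0.26 (edgeR, unadjusted p = 0.0092, adjusted p = 1.0, and adjusted p = 0.034 from DESeq2). Per1, a clock gene that aldosterone also induces and that was singled out after its values were seen, had 32.5 and 43.3 CPM in WT kidneys and 98.0 and 81.1 CPM in KO kidneys (1.24 ± 0.18, adjusted p = 0.42 from edgeR and 1.8e-07 from DESeq2). In their list 11 of 13 differences were above 0, with a median of 0.24 against -0.0041 over all genes. In the list of vacuolar ATPase subunits 18 of 21 differences were above 0, with a median of 0.05.

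The genes whose pattern over the 6 libraries was most like that of each member were found by the root mean square difference in log2(CPM + 0.5) after centring each gene, over 14586 genes with a mean of at least 1 CPM. For Ren1 these were Ugt1a2 (0.288), Vil1 (0.387) and Miox (0.401), the values being root mean square differences. Agtr2 had the closest neighbour of all, Fam78b (0.031), followed by Elovl4 (0.101) and Zc3h12a (0.11). Ace was closest to Pdzk1ip1 (0.050), Cenpf (0.057) and Gca (0.058), Agtr1a to Zfp946 (0.053), Calcrl (0.073) and Arxes2 (0.073), and Atp6ap2 to Zfp955a (0.047), Ssr3 (0.058) and Hnrnph2 (0.060). Agt was closest to Chpf2 (0.114), Mgp (0.119) and Ncf4 (0.166), and Agtr1b to Stau2 (0.050), 4833418N02Rik (0.093) and H1f0 (0.105). For Mas1 the nearest were 4930402H24Rik (0.090), Gm3558 (0.112) and 2700054A10Rik (0.115). The points share libraries, so these values describe likeness over 6 libraries and 2 tissues and carry no test.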

How the data were processed

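RNA of kidney (4 libraries) and ureter (2 libraries) was sequenced by the authors on an Illumina HiSeq2500 after TruSeq Stranded mRNA preparation. The authors deposited a table of 24532 genes with an estimated count (whole numbers, not normalized), FPKM and TPM per library. The submitters' processing notes name Trimmomatic 0.38, HISAT2 2.1.0, StringTie 1.3.4b and mm10, whereas the study's methods name Cutadapt, STAR, Cufflinks and GRCm39, so which pipeline made the table is not settled, and the handling of strand and of reads that match several genes is not known. The deposited counts are estimates, and a 0 is the table's entry.

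Genes were tested on these deposited expected counts, in place of the raw counts planned for, with edgeR 4.0.16 in R 4.3.3 (TMM, filterByExpr, quasi-likelihood test, Benjamini-Hochberg adjustment over all genes tested, threshold 0.05). Tissue was tested over 6 libraries with genotype as a term (3 residual degrees of freedom), genotype in the 4 kidney libraries (2), and their interaction over 4 groups (2). Standard errors are approximate and were derived from each log2 difference and its F statistic. The ureter libraries were compared by the ratio of CPM + 0.5 where the higher of both had 10 counts or more. Alternatives used DESeq2 1.42.0, limma 3.58.1 on log2 FPKM, other filters, blocks and subsets of libraries. The scripts were tested on simulated counts. The deposited TPM was used only to compare levels between genes, and intervals and limits cover counting error only. Library totals of 36410246 to 66095616 counts set the precision of low genes. Python 3.11.15 was used for the rest.

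Positions and upstream windows came from RefSeq (GRCm38.p6) and coding sequence from GENCODE M21. Gene numbers matched RefSeq for 24462 genes, which also restored 27 symbols that a spreadsheet had made into dates. The text names all members, Ahnak, a set of pathway genes and the 3 genes most like each member, and it says where a gene was singled out after its values were seen. One pathway gene is not reported here. Members, pathway lists and markers were chosen with earlier results of these data known.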

Additional observations from a re-analysis of the deposited data

Results flagged for a closer look

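Agtr1b, the minor type 1 receptor gene, differed between KO and WT libraries in opposite directions in kidney and ureter. In kidney both KO libraries (2.19 and 1.74 CPM) lay above both WT libraries (1.69 and 1.22 CPM), with a log2 difference of 0.44 ± 0.41. That arrangement was found for 12.7% of all genes tested in kidney. In ureter the KO library (0.801 CPM) lay below the WT library (1.5 CPM), with a log2 ratio of -0.59 on the log2(CPM + 0.5) scale. The test of the difference itself, the interaction of tissue and genotype, gave -1.33 ± 0.79 and did not pass (adjusted p = 0.56 from edgeR, 0.33 to 0.76 over the alternatives). The counts were 120 and 74 in WT kidneys, 133 and 103 in KO kidneys, 77 in WT ureter and 24 in KO ureter. Both lone ureter libraries were assumed to vary like kidney.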

How the results depend on the processing

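The tissue calls of Ren1, Ace and Agtr2 kept their direction and their side of the threshold under every alternative run, and the count of members called between tissues was 3 to 5. The count of all genes called between tissues went from 7595 to 4841 with kidney replicate 2 and the ureters alone, libraries that share numbers in the file headers (an alternative added after seeing the data), and to 5158 to 6877 with each library left out. Limma on log2(FPKM + 1) put 2528 of 8888 calls higher in ureter, against 3603 of 7595, and moved the median of all genes from -0.08 to -0.24. Tissue differences reversed in WT libraries only for Agt (-0.14) and Agtr1b (0.038), and over left-out libraries Agt ran from -0.13 to 0.69, Agtr1b from -1.29 to 0.046 and Mas1 from -5.26 to 2.58.

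Genes called between kidney genotypes numbered 2, and 1 with at least 10 counts in every library, 44 with DESeq2, 0 with limma on log2(FPKM + 1) and on log2(FPKM + 0.1), and 3 to 87 with a library left out (46 without KO kidney 1, 87 without KO kidney 2, 10 without WT kidney 1). Ren1 was -0.0031 and -0.0046 with limma, and over left-out libraries Ren1 ran from -0.91 to 0.88, Agt from -0.17 to 1.05 and Ace from -0.10 to 0.17. Whether the title numbers pair the kidneys cannot be told from these libraries. With 2 libraries of each genotype, deviations of same-numbered and of crossed libraries correlate with opposite sign by construction (-0.28 and 0.28). The replicate block left 0 genes called, and a crossed replicate block, added after seeing the data, 1. No member was called under either block.

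Interaction calls numbered 19, with 476 from DESeq2, 0 from both limma fits and 4 to 270 with a kidney library left out (4 and 5 without WT kidney 1 and 2, 153 and 270 without KO kidney 1 and 2). Interactions reversed with limma for Agtr1a (-0.14 with both pseudocounts) and Atp6ap2 (-0.16 and -0.17), and over left-out libraries Agtr1a ran from -0.10 to 0.21 and Agtr2 from -0.19 to 0.089. No ureter library could be left out there. Genes past 2-fold in ureter numbered 1646, 2775 with a pseudocount of 0.1 CPM and 2654 with FPKM. Library size alone put 543 higher and 1310 lower, against 715 and 931, and moved the median from -0.02 to -0.20. Members past 2-fold were 2, and 1 with library size alone, with FPKM, or with at least 50 counts. The cause of these changes was not tested. Mas1 rested on 0 to 48 counts a library and Agtr1b on 24 to 133.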
